A study of Mus musculus with 72 samples.

Results

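The 6 genes followed here in mouse liver bind or move metal ions, namely the metallothioneins Mt1 and Mt2, the exporters Slc30a1 and Slc30a10 and the importers Slc39a4 and Slc39a14. They were taken by symbol through their Ensembl identifiers, and all 6 were found among the 55573 genes of the count table. Liver RNA came from 72 adult male C57BL/6 mice killed at ZT2, ZT6, ZT10, ZT14, ZT18 or ZT22, where ZT is the number of hours after lights on. WT mice were Bmal1 fl/fl and LKO mice were Bmal1 fl/fl with Albumin-Cre, a transgene that acts in hepatocytes, so both genotypes carried the floxed allele of Bmal1, a core activator of the circadian clock. Mice of either genotype were kept with microbes under specific pathogen-free (SPF) conditions or germ free (GF) in isolators, and each of the 4 groups had 3 mice at each ZT (18 libraries per group). GF LKO mice came from a rederivation of the SPF line, and each mouse gave 1 library.

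Metallothioneins are small cysteine-rich proteins that hold zinc and copper. Their genes are switched on by the zinc-sensing factor MTF-1, which binds short metal response elements near their starts, and by glucocorticoids and inflammatory cytokines, and liver is a main site of their synthesis. Slc30a1 (ZnT1) moves zinc out of cells, and Slc30a10 moves manganese out of cells, in liver towards the bile. Slc39a4 (ZIP4) takes up zinc and is best known from intestine, while Slc39a14 (ZIP14) takes up zinc, manganese and iron into hepatocytes and is known as an acute-phase transporter.

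Mt1 (ENSMUSG00000031765) lies on the plus strand of chromosome 8 at 94179082 to 94180327 of GRCm38, and Mt2 (ENSMUSG00000031762) at 94172664 to 94173568 on the same strand, with 5513 bases between them. Slc30a1 (ENSMUSG00000037434) is on chromosome 1 at 191906767 to 191913247 and Slc30a10 (ENSMUSG00000026614) on chromosome 1 at 185454848 to 185468762, both on the plus strand. Slc39a4 (ENSMUSG00000063354) is on the minus strand of chromosome 15 at 76612383 to 76617384, and Slc39a14 (ENSMUSG00000022094) on the minus strand of chromosome 14 at 70303469 to 70351425. All 6 are protein-coding. Reads were counted over exons without use of the strand, and reads that overlapped more than 1 gene were left out. This removed much of Mt2 from the count, because 432 of its 588 exon bases (73.5%) are shared with the antisense gene Gm45774. For Slc30a1 468 of 5244 exon bases (8.92%) are shared with 1700034H15Rik, for Slc30a10 533 of 6508 (8.19%) with Gm2061, and for Mt1, Slc39a4 and Slc39a14 0.

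The letters of the metal response element near their starts are shown because Mt1 and Mt2, whose levels rose and fell together over the livers, both hold them. The 250 bases before the downstream annotated start of either gene (RefSeq sequence on GRCm38.p6, joined to the first exon of the longest transcript) were searched on both strands for the cores TGCACNC and TGCGCNC. The Mt1 window, before the start at 94179241, held 5 matches, and the Mt2 window, before the start at 94172860, held 4. In the RefSeq table, whose 250-base windows lie before the upstream start, Mt1 held 1 match and Mt2 held 3, and of its 32851 promoters 21.4% held at least 1 and 1.26% at least 3. These shares are for windows at the table's own starts and were not computed for windows moved to a downstream start. The matches are printed 5′ to 3′ on the plus strand with the matched letters in capitals, and the name gives the distance from the start to the first capital.
Mt1 at -175, chr8:94179057-94179081: gtcccgctgTGCACACtggcgctcc
Mt1 at -150, chr8:94179082-94179106: agggagctcTGCACTCcgcccgaaa
Mt1 at -132, chr8:94179100-94179124: cccgaaaagTGCGCTCggctctgcc
Mt1 at -68, chr8:94179164-94179188: ccgcctgctGGGTGCAaaccctttg
Mt1 at -54, chr8:94179178-94179202: caaacccttTGCGCCCggactcgtc
Mt2 at -238, chr8:94172613-94172637: attcgggtcGTGCGCAggcccaggg
Mt2 at -184, chr8:94172667-94172691: aaaaagggcGTGTGCAggcggcggg
Mt2 at -165, chr8:94172686-94172710: ggcgggggcGCGTGCAtggtgcctt
Mt2 at -131, chr8:94172720-94172744: cggagctttTGCGCTCgacccaata
The Mt1 window also held 1 match to the glucocorticoid response element, which 0.387% of the 32851 promoters held, and the Mt2 window held 0. It is printed in the same way.
Mt1 at -247, chr8:94178991-94179017: ataGGGACATGATGTTCCacacgtcac
In the RefSeq promoter windows of Slc30a1 and Slc30a10 the metal response element cores matched 1 and 3 times, and 2 of the matches of Slc30a10 lie on opposite strands of nearly the same letters. The clock motifs CACGTG (E-box, in 6.02% of promoters) and TTANGTAA (D-box, in 2.06%) were searched on both strands in the same windows of Mt1, Mt2, Slc30a1 and Slc30a10, with 0 matches. A match is a description of the letters, not a bound site.

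Libraries held 17369927 to 22076113 counts, with a median of 19106726, and between 4.15% and 8.41% of counts lay on the mitochondrial chromosome. Npas2, a clock gene that Bmal1 loss raises, served to check the genotype because Arntl (Bmal1) messages were still counted in LKO livers. Npas2 was at 0.219 CPM in replicate 2 of the mice labelled SPF LKO ZT14 and at 1.82 CPM in replicate 1 of those labelled SPF LKO ZT18, against 14.4 to 36.7 CPM in the other 16 SPF LKO libraries. Arntl was at 2.12 CPM in replicate 3 of SPF WT ZT14, against 15.8 and 19.5 in the other 2 mice, and at 8.21 CPM in replicate 3 of GF WT ZT6, against 1.62 and 2.43. These 4 libraries go against their labels or their ZT, and are called the doubted libraries, and calls of the 6 genes that change without them are given both ways. Summed markers of pancreatic acinar cells reached at most 1.76 CPM, with Amy2a5 at 0, and 4 of 5 enterocyte markers (Vil1, Cdx2, Sis and Alpi) had a median under 1 CPM in each group, while the sum of the 5 ran from 38.2 to 241 CPM over the libraries. In bulk liver, fewer cells of a type and less RNA per cell cannot be told apart.

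Levels are given in CPM, counts per 1000000 after scaling by TMM factors. Per kilobase of exon that no other gene shares, the median over the 72 libraries was 18.3 CPM for Mt1, 17.5 for Slc39a14, 13.8 for Slc30a10, 11.3 for Slc30a1, 11.2 for Slc39a4 and 2.66 for Mt2. The lengths are of merged exons, which for Mt1 fill its whole span of 1246 bases. Reads of 50 bases that reached into shared bases were left out, so fewer positions of Mt2 could be counted than its 156 unshared bases. The order of the 6 genes on this scale depends on these lengths. On this scale Mt1 had the widest range of the 6, from 1.42 to 229 CPM per kilobase, and Slc39a4 ran from 4.27 to 20.4. The spread between the 3 mice of a group and ZT was largest for the metallothioneins. The median coefficient of variation over the 24 sets of 3 mice was 43.2% for Mt1 and 92.8% for Mt2. Those were larger than in 99.4% and 99.98% of 10709 genes, the members and others whose log2 CPM averaged 1 or more. Mt2, at a median of 0.414 CPM, lay below that level, so its spread includes counting error. Its rank is therefore not one among genes of like depth. For Slc30a10 it was 11.7% and for Slc39a14 11.8%, near the middle of those genes, and for Slc30a1 and Slc39a4 it was 17.5% and 24.0%.

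Mt1 in SPF WT livers stood at 195, 4.87 and 17.1 CPM (ZT2), 34.6, 18.1 and 22.6 (ZT6), 22.9, 13.9 and 5.15 (ZT10), 17, 10.4 and 25 (ZT14), 26.6, 21.4 and 3.85 (ZT18) and 38.4, 12.1 and 1.77 (ZT22). Replicate 1 at ZT2 stood far above the other 17 livers, which lay between 1.77 and 38.4 CPM. In SPF LKO livers Mt1 stood at 1.81, 3.70 and 3.73 CPM (ZT2), 23.1, 5.24 and 6.49 (ZT6), 8.27, 16.7 and 8.47 (ZT10), 15, 149 and 14.2 (ZT14), 3.59, 5.14 and 3.73 (ZT18) and 3.42, 2.15 and 3.13 (ZT22). Here the high value was that of ZT14 replicate 2, whose Npas2 went against its label, and the livers of ZT18, ZT22 and ZT2 were low with little spread.

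Mt1 in GF WT livers stood at 120, 31.4 and 42.4 CPM (ZT2), 105, 110 and 6.14 (ZT6), 117, 133 and 154 (ZT10), 101, 39.6 and 95.8 (ZT14), 36.2, 8.15 and 15.4 (ZT18) and 38.4, 41.5 and 19.3 (ZT22). The low value at ZT6 was in replicate 3, whose Arntl stood apart from the other mice of its ZT. In GF LKO livers Mt1 stood at 53.9, 95 and 41.5 CPM (ZT2), 125, 109 and 161 (ZT6), 68, 286 and 49.5 (ZT10), 41.5, 56.6 and 43.5 (ZT14), 8.43, 15.1 and 17.6 (ZT18) and 25.7, 30.8 and 21 (ZT22). In either GF genotype the ZT18 livers were the lowest set. The group medians were 17.6 CPM in SPF WT, 5.19 in SPF LKO, 41.9 in GF WT and 46.5 in GF LKO livers.

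**Figure D1:**
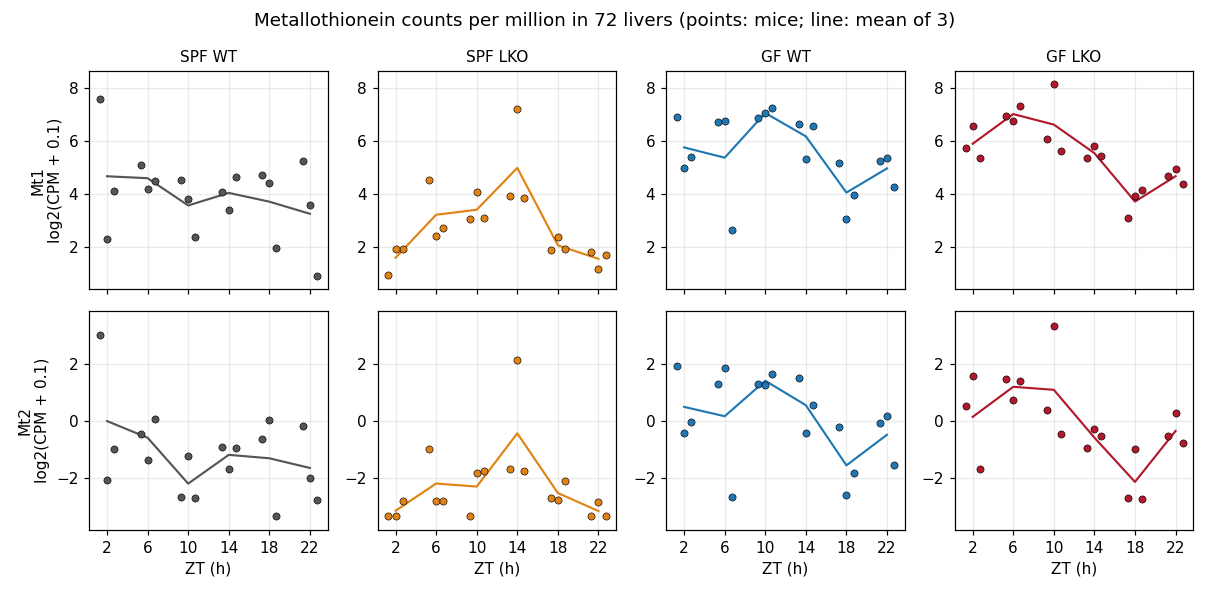
Mt1 (top) and Mt2 (bottom) on a log2(CPM + 0.1) scale against ZT in hours, with 1 panel per group. Each point is a mouse and lines join the means of the log2 values of the 3 mice. In CPM the Mt1 mean in GF livers was highest at ZT10 and lowest at ZT18. In GF LKO livers the ZT10 mean rests on 1 liver at 286 CPM, and the median was higher at ZT6 (125 CPM) than at ZT10 (68 CPM). Single SPF livers stood far above the rest of their group.

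Mt1 was higher in GF than in SPF livers of both genotypes. With ZT pooled it averaged 27.3 ± 43 CPM (SD, n = 18) in SPF WT and 67.4 ± 48.2 (n = 18) in GF WT livers, a log2 fold change of 1.30 ± 0.45 (SE; adjusted p = 0.0245 in edgeR's quasi-likelihood test). Between LKO groups the averages were 15.4 ± 34 CPM and 69.4 ± 68 CPM (SD, n = 18 each), a log2 fold change of 2.18 ± 0.52 (adjusted p = 0.00123, edgeR). Means were higher in GF livers at 5 of 6 ZT in either genotype. The exception in WT was ZT2, where 1 SPF liver stood at 195 CPM, and in LKO it was ZT14, where replicate 2, whose Npas2 went against its label, stood at 149 CPM. Without SPF WT ZT2 replicate 1, the log2 fold change in WT was 1.94 (adjusted p = 0.000224). Mt1 was the 1 member that passed in either comparison, of 6 tested in WT and 5 in LKO, against 31.8% of all genes tested between WT groups and 36.4% between LKO groups. The WT call was lost when all mice of replicate number 2 or 3 were left out (adjusted p = 0.22 and 0.112).

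Mt2 had few counts, and its values rest on the 156 exon bases that Gm45774 does not share. Its median was 7.5 counts per library in SPF WT, 1 in SPF LKO, 16.5 in GF WT and 13 in GF LKO livers, and 6 of the 72 libraries had 0 counts, 5 of them SPF LKO. In SPF LKO livers 16 of the 18 libraries held at most 4 counts, and the library labelled ZT14 replicate 2 held 79. In CPM the group medians were 0.367, 0.0446, 0.946 and 0.673. Mt2 fell below the filter on low counts in both pooled comparisons that include SPF LKO livers, and between WT groups it differed by 0.87 ± 0.52 on the log2 scale, GF minus SPF (SE; adjusted p = 0.20, edgeR). Without SPF WT ZT2 replicate 1, which held 165 counts, the difference was 1.97 (adjusted p = 0.000811). Without the filter, Mt2 passed between LKO groups, GF minus SPF being 2.31 ± 0.61 on the log2 scale (adjusted p = 0.00621, edgeR).

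Across the 72 libraries Mt1 and Mt2 ranked the livers almost alike, with a Spearman rho of 0.94. Within the 4 groups of 18 libraries rho ran from 0.80 to 0.93, and after removal of the mean of each group and ZT Pearson's r was 0.89. The genes are neighbours and each pair of values shares a library, so these are descriptions. Many of the lower Mt2 values rest on 1 count.

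**Figure D2:**
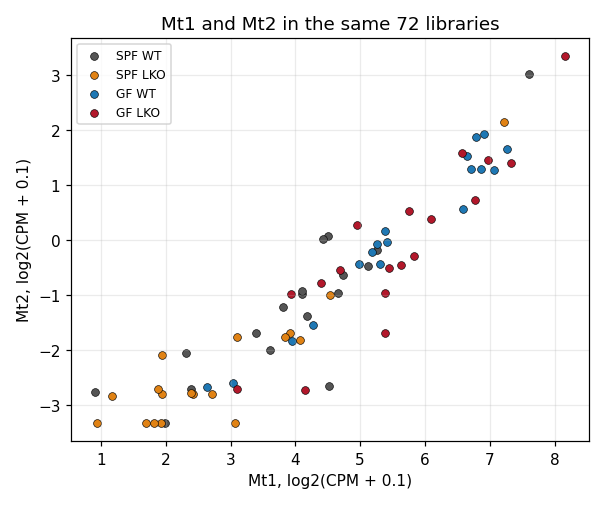
Mt1 against Mt2 in the same 72 libraries, both as log2(CPM + 0.1), with 1 point per mouse and colours for the 4 groups. The points follow a single band, with most SPF LKO livers towards its low end and most GF livers in its upper part. The groups overlap along it. Mt1 reached down to 6.14 CPM in GF WT and 8.43 CPM in GF LKO livers, and up to 149 CPM in SPF LKO and 195 CPM in SPF WT livers.

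The 6 livers with the highest Mt1, from the highest down, ranked 2, 3, 8, 54, 4 and 27 of the 72 libraries by summed acute-phase genes. By the sum of 14 glucocorticoid-responsive genes the same livers ranked 2, 21, 42, 3, 7 and 16. Over 16 genes of the acute-phase list (such as the serum amyloid genes Saa1 and Saa2, haptoglobin Hp and Orm1) the summed level was 24104 CPM in GF LKO ZT10 replicate 2, 23850 in SPF WT ZT2 replicate 1 and 21162 in the doubted library of SPF LKO ZT14, ranks 2, 3 and 4 of the 72 libraries, whose median was 15456. Mt1 in these livers was at 286, 195 and 149 CPM, ranks 1, 2 and 5. The liver at rank 3 for Mt1, GF LKO ZT6 replicate 3, had a sum of 18871 CPM (rank 8). The livers at ranks 4 and 6, GF WT ZT10 replicates 3 and 2, had sums of 13751 CPM (rank 54) and 16275 CPM (rank 27). The highest acute-phase sum, 25338 CPM, was in SPF WT ZT6 replicate 2, whose Mt1 was at 18.1 CPM, so the lists did not rank the livers alike. Over all libraries rho between Mt1 and the acute-phase sum was 0.70, and between Mt1 and the sum of 14 glucocorticoid-responsive genes 0.66. The part of these genes in the Mt1 values was not tested.

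Within single ZT, the GF and SPF groups were separate for Mt1 at ZT10 in both genotypes. In WT livers at ZT10 the log2 fold change was 3.28 ± 0.61 (SE, 3 mice a group; adjusted p = 0.0148, edgeR), with 117 to 154 CPM in GF and 5.15 to 22.9 CPM in SPF mice. In LKO livers it was 3.58 ± 0.62 at ZT10 (adjusted p = 0.0173), 4.36 ± 1.08 at ZT2 (adjusted p = 0.0254) and 3.16 ± 0.71 at ZT22 (adjusted p = 0.0398). At these 3 ZT no SPF LKO liver reached the lowest GF LKO liver, and the same held at ZT6 and ZT18, where Mt1 did not pass. The WT call at ZT10 remained when any 1 of the 12 libraries of that ZT was left out, with adjusted p of at most 0.0492 over all alternatives, while the LKO calls depended on single libraries. At ZT2 the call was lost without any 1 of the 6 libraries compared, at ZT10 without any 1 of the 3 SPF LKO libraries, and at ZT22 without any 1 of the 6 compared or GF WT replicate 2, with adjusted p up to 0.163. At ZT14 in WT livers the GF and SPF sets did not overlap either. Mt1 differed there by 2.17 (adjusted p = 0.224, edgeR), and without both doubted libraries of that ZT by 2.51 (adjusted p = 0.00373).

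Mt2 passed between LKO groups at ZT10 and ZT22 (adjusted p = 0.0439 and 0.0386, edgeR). At ZT22 the 3 SPF LKO libraries held 1 count together and the 3 GF LKO libraries 39, and the ratio per count of depth was 45.1, with an exact 95% interval of 7.63 to 1827 that covers counting error only. At ZT10 the SPF LKO libraries held 0, 4 and 4 counts, and those of GF LKO 24, 197 and 12. The ZT10 call was lost without any 1 of 8 of the 12 libraries of that ZT (adjusted p up to 0.150), among them GF LKO replicate 2 with its 197 counts (adjusted p = 0.122). The ZT22 call was lost without any 1 of the 3 SPF LKO libraries, GF LKO replicate 2 or 3 or GF WT replicate 2 (adjusted p of 0.0548 to 0.143). Beside these counts of members, the shares of all genes called between LKO groups were 8.92%, 0.309%, 0.982%, 0.0601%, 3.71% and 2.25%, in the order of ZT from ZT2 to ZT22. Between WT groups they were 10.1%, 2.62%, 2.89%, 0.0751%, 0.983% and 0.516% at the same ZT in order.

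Between genotypes, Mt1 did not pass with ZT pooled. In SPF mice the log2 fold change, LKO minus WT, was -0.82 ± 0.54 (SE; adjusted p = 0.288, edgeR), with medians of 17.6 CPM in WT and 5.19 CPM in LKO livers and a lower LKO mean at 5 of 6 ZT. This value rested on the 2 SPF libraries with the highest Mt1. Without the doubted library of SPF LKO ZT14 it was -1.86 (adjusted p = 0.00154), without all doubted libraries -1.82 (adjusted p = 0.00288), and without SPF WT ZT2 replicate 1 -0.18 (adjusted p = 0.836). In GF mice the difference was 0.05 ± 0.39 for Mt1 (adjusted p = 0.947) and 0.05 ± 0.47 for Mt2 (adjusted p = 0.957). There too the LKO mean of Mt1 was lower at 5 of 6 ZT, while its median was higher (46.5 against 41.9 CPM). Without GF LKO ZT10 replicate 2, whose Mt1 was at 286 CPM, the differences were -0.25 for Mt1 and -0.53 for Mt2 (adjusted p = 0.669 and 0.372, edgeR). The genotype effect in GF minus that in SPF mice was 0.86 ± 0.68 for Mt1 (adjusted p = 0.96, edgeR on all 72 libraries). None of the 6 members passed this test, with 0 at an unadjusted p under 0.05 and 0 in DESeq2, and 0.438% of all genes did.

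At ZT2 in SPF mice, Mt1, Mt2 and Slc39a14 were lower in LKO livers. Mt1 was at 1.81 to 3.73 CPM in LKO and at 4.87 to 195 CPM in WT livers, a log2 fold change of -4.55 ± 1.09 (adjusted p = 0.0233, edgeR). Mt2 had 1 count in the 3 LKO libraries together and 176 in the 3 WT libraries, of which 165 came from replicate 1 (adjusted p = 0.0477). Slc39a14 was at 120, 132 and 132 CPM in LKO and at 158, 189 and 317 CPM in WT livers (-0.78 ± 0.21, adjusted p = 0.0421). The groups did not overlap for the 3 genes, but the size came from SPF WT ZT2 replicate 1. Without it the adjusted p was 0.166 for Mt1, 0.38 for Mt2 and 0.183 for Slc39a14, and each of the 3 calls was also lost without any 1 of the SPF LKO libraries.

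Slc30a10, the manganese exporter, had a 24 h rhythm in both WT groups. In SPF WT livers it stood at 63.9, 97 and 60.1 CPM (ZT2), 28.7, 51.2 and 36.3 (ZT6), 17.7, 27.8 and 27.3 (ZT10), 61.7, 64.7 and 26.8 (ZT14), 80.6, 81.4 and 66.5 (ZT18) and 76.4, 99.7 and 106 (ZT22). In GF WT livers it stood at 91.2, 92.7 and 86.8 CPM (ZT2), 39.7, 42.1 and 44.4 (ZT6), 16.4, 8.82 and 10.1 (ZT10), 21.3, 32.9 and 24.8 (ZT14), 79.3, 72.9 and 82.8 (ZT18) and 110, 103 and 110 (ZT22). Both WT groups were lowest at ZT10 and highest at ZT22, without overlap between these ZT. The ZT22 mean was 3.88 times the ZT10 mean in SPF WT and 9.15 times in GF WT livers. A 24 h rhythm, tested as a cosine and sine of ZT over the 18 libraries of a group, passed in SPF WT (adjusted p = 0.000224) and in GF WT livers (adjusted p = 2.14e-07), with fitted peaks at ZT21.5 and ZT22.6.

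In LKO livers the trough at ZT10 was absent from the values. Slc30a10 stood at 90.9, 90.4 and 78.6 CPM (ZT2), 97.9, 80.4 and 90.4 (ZT6), 82.3, 92.0 and 85.6 (ZT10), 102, 39.4 and 137 (ZT14), 81.2, 111 and 107 (ZT18) and 117, 96.6 and 89.0 (ZT22) in SPF LKO livers. In GF LKO livers it stood at 109, 82.6 and 84.3 CPM (ZT2), 74.7, 82.6 and 74.7 (ZT6), 85.4, 88.4 and 80.1 (ZT10), 107, 91.4 and 100.03 (ZT14), 105, 90.1 and 96.4 (ZT18) and 100.04, 95.5 and 119.9 (ZT22). The low value at ZT14 was in the doubted replicate 2 of SPF LKO, and the other 35 LKO livers lay between 74.7 and 137 CPM. The highest mean over the lowest was 1.17 in SPF LKO and 1.36 in GF LKO livers. The rhythm test gave an adjusted p of 0.653 in SPF LKO livers and passed in GF LKO livers (adjusted p = 0.0139), where the fitted peak-to-trough fold was 1.30 against 8.55 in GF WT. The GF LKO call was lost without the mice of replicate number 1 (adjusted p = 0.0719) or 3 (adjusted p = 0.237). Without both doubted libraries of the group it passed in SPF LKO livers too (adjusted p = 0.0292).

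**Figure D3:**
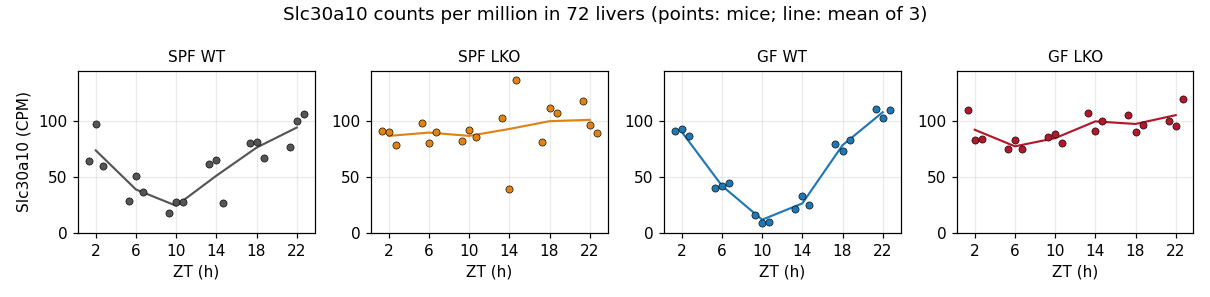
Slc30a10 in CPM against ZT in hours, with 1 panel per group. Each point is a mouse and lines join the means of the 3 mice. WT livers of either microbial state dip at ZT10, to 17.7 to 27.8 CPM in SPF and 8.82 to 16.4 CPM in GF mice, while LKO livers stayed between 74.7 and 137 CPM apart from 1 library.

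The rhythm of Slc30a10 differed between genotypes. The test of the difference gave an adjusted p of 0.0222 in SPF and 1.27e-08 in GF mice (edgeR, 36 libraries each). In SPF mice the call was lost when all mice of replicate number 1 or 3 were left out (adjusted p = 0.272 and 0.282), and it strengthened to an adjusted p of 0.00151 without the doubted library of SPF LKO ZT14. At ZT10 LKO exceeded WT livers by 1.84 ± 0.20 on the log2 scale in SPF mice (adjusted p = 2.55e-05) and by 2.84 ± 0.21 in GF mice (adjusted p = 5.28e-07, edgeR, 3 mice a group). At ZT6 the differences were 1.21 ± 0.17 (adjusted p = 0.000644) and 0.87 ± 0.17 (adjusted p = 0.00399). At ZT14 the GF difference was 1.92 ± 0.40 (adjusted p = 0.0184), and the SPF difference was 0.87 (adjusted p = 0.438), or 0.93 without both doubted libraries of that ZT (adjusted p = 0.00974). The GF call at ZT14 was lost without GF WT replicate 1 or 3 or any 1 of the 3 GF LKO libraries (adjusted p up to 0.0848), while those at ZT6 and ZT10 remained under all 17 alternatives in either microbial state. With ZT pooled, Slc30a10 was higher in LKO livers by 0.64 ± 0.18 in SPF mice (adjusted p = 0.0083) and by 0.64 ± 0.24 in GF mice (adjusted p = 0.0373), but not without replicate number 1, 2 or 3 or GF WT ZT6 replicate 3 in GF mice (adjusted p = 0.137, 0.109, 0.103 and 0.052) or number 1 or 3 in SPF mice (adjusted p = 0.095 and 0.11). Summed markers of hepatocytes (7 genes) ran from 94045 to 142134 CPM in SPF WT, 55672 to 136666 in SPF LKO (median 70435, with the doubted libraries of ZT18 and ZT14 at 136666 and 115032), 124556 to 185755 in GF WT and 65199 to 88491 in GF LKO livers, and their part in the genotype differences was not tested.

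The trough of Slc30a10 in WT livers differed between microbial states. At ZT10 GF WT livers were lower than SPF WT livers by 1.04 ± 0.20 on the log2 scale, GF minus SPF being -1.04 (adjusted p = 0.0193, edgeR), with 8.82 to 16.4 against 17.7 to 27.8 CPM. The call was lost when SPF WT replicate 2 or 3 or GF WT replicate 2 or 3 of that ZT was left out, with adjusted p of 0.0539 to 0.0899. At ZT14 GF minus SPF was -0.96 ± 0.40 and did not pass (adjusted p = 0.288), and without both doubted libraries it was -1.27 (adjusted p = 0.00276). Over all ZT the 24 h rhythm did not pass as different between GF and SPF WT mice (adjusted p = 0.239), and pooled levels differed by -0.02 ± 0.29 (adjusted p = 0.962). In LKO livers the pooled GF and SPF levels differed by -0.01 ± 0.09 (adjusted p = 0.965).

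Beside the members, the share of all genes called between genotypes was 23.1% in SPF and 30.8% in GF mice with ZT pooled, where 1 of 5 and 2 of 6 members passed. At ZT2, ZT6, ZT10, ZT14, ZT18 and ZT22 it was 6.89%, 7.26%, 11.9%, 0.0%, 0.015% and 3.31% in SPF mice, and 4.21%, 11.7%, 13.1%, 6.1%, 8.43% and 4.44% in GF mice. Of 36 tests of a member at a ZT, 5 passed in SPF and 3 in GF mice between genotypes, and 2 passed in WT and 5 in LKO mice between microbial states. In edgeR no member passed between genotypes at ZT14, ZT18 and ZT22 in SPF mice, where 7 of 18 tests had an unadjusted p under 0.05 and 2 passed in DESeq2. In GF mice none passed at ZT2, ZT18 and ZT22, with 2 of 18 and 0 by the same measures. Between WT groups 5 ZT gave no call (2 of 30, and 0 in DESeq2), and between LKO groups 3 ZT gave none (5 of 18, and 2 in DESeq2).

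Slc39a14, the zinc, manganese and iron importer, was the member with the most counts. In 3 groups it had a 24 h rhythm that passed, with a peak around the end of the light phase. In GF LKO livers it stood at 158, 120 and 111 CPM (ZT2), 132, 158 and 147 (ZT6), 257, 259 and 300.4 (ZT10), 269.9, 231 and 237 (ZT14), 148, 165 and 183 (ZT18) and 173, 142 and 175 (ZT22). The ZT10 and ZT14 livers stood above all others of the group. In SPF LKO livers means rose from 128 ± 6.78 CPM at ZT2 to 227 ± 45.3 at ZT14 (SD, n = 3 each), and in GF WT livers from 165 ± 19.3 at ZT2 to 266 ± 30.4 at ZT10, in each case without overlap between these ZT. The 24 h rhythm passed in SPF LKO (adjusted p = 0.00924), GF WT (adjusted p = 0.00455) and GF LKO livers (adjusted p = 0.000171), with fitted peaks at ZT13.2, ZT11.5 and ZT12.7. The SPF LKO call was lost with ZT as a factor (adjusted p = 0.0843) and without replicate number 1 or 2 (adjusted p = 0.0713 and 0.0748), and the GF WT call with ZT as a factor (adjusted p = 0.06). In SPF WT livers the rhythm did not pass (adjusted p = 0.342, edgeR). There too the mean was highest at ZT14, at 232 CPM, with ZT2 and ZT6 near at 221 CPM each and the lowest mean at ZT18, at 168 CPM. The ZT2 value of 317 CPM in replicate 1 was the highest of the group. Without that library the adjusted p was 0.111. No difference of rhythm passed for Slc39a14 in the 4 comparisons (adjusted p of 0.246 to 0.651), so the groups were not shown to differ.

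Slc39a14 pooled over ZT averaged 204 ± 42.6 CPM in SPF WT, 176 ± 43.8 in SPF LKO, 211 ± 47 in GF WT and 187 ± 57 in GF LKO livers (SD, n = 18 each). LKO minus WT was -0.21 ± 0.10 in SPF mice (adjusted p = 0.147) and -0.18 ± 0.12 in GF mice (adjusted p = 0.295, edgeR). Without the doubted library of SPF LKO ZT14 the SPF difference passed (-0.26, adjusted p = 0.0453), and without all doubted libraries it did not (-0.22, adjusted p = 0.0935). The GF difference passed with ZT as a factor (-0.21, adjusted p = 0.0201) and with the replicate block (-0.20, adjusted p = 0.0354). Within sets of the same group and ZT, Slc39a14 varied with Mt1 (Pearson's r 0.59 over 72 libraries on the log2 scale, a description).

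Slc30a1, the zinc exporter, had like pooled levels in the 4 groups. Its medians were 54.1 CPM in SPF WT, 55.1 in SPF LKO, 51.8 in GF WT and 55.5 in GF LKO livers, and its 72 values ran from 33.5 to 90.7 CPM. The 4 pooled differences lay between -0.09 and 0.01 on the log2 scale, with standard errors of 0.09 to 0.10 and adjusted p of at least 0.538. At ZT14 in GF mice it was at 37.8 to 42.9 CPM in LKO and 51.9 to 59.2 CPM in WT livers, without overlap (-0.47 ± 0.19, adjusted p = 0.174). That difference passed with only the 6 libraries compared (adjusted p = 0.00726), without both doubted libraries of ZT14 (adjusted p = 0.0183) and with no filter (adjusted p = 0.0479). In GF LKO livers a 24 h rhythm passed (adjusted p = 0.0212), with means of 40.5 ± 2.59 CPM at ZT14 and 72.1 ± 5.63 at ZT22 (SD, n = 3 each) and no overlap, and it was lost without the mice of replicate number 2 or 3. In the other 3 groups the adjusted p was 0.118 to 0.895. Without the doubted library of the group it passed in SPF WT (adjusted p = 0.0303) and in GF WT livers (adjusted p = 0.0482), and without the latter library the rhythm differed between genotypes in GF mice (adjusted p = 0.0352, against 0.196 with it). In contrast to Slc39a14, Slc30a1, Slc30a10 and Slc39a4 varied against Mt1 within sets of the same group and ZT (r -0.31, -0.42 and -0.33, descriptions).

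Slc39a4, the zinc importer, had group medians of 31.8 CPM in SPF WT, 36 in SPF LKO, 34 in GF WT and 40.7 in GF LKO livers. It was higher in LKO livers of GF mice by 0.29 ± 0.10 on the log2 scale (33.2 ± 6.97 against 40.7 ± 7.50 CPM, SD, n = 18 each, adjusted p = 0.0168), with a higher LKO mean at 6 of 6 ZT. In SPF mice the difference was 0.26 ± 0.14 (adjusted p = 0.174), with a higher LKO mean at 5 of 6 ZT. The GF call was lost without the mice of replicate number 1 (adjusted p = 0.32) or 3 (adjusted p = 0.0607). The 24 h rhythm of Slc39a4 had an adjusted p of 0.0879 in SPF LKO livers, where the ZT10 mean was 23.8 ± 9.20 and the ZT22 mean 46.3 ± 16.1 CPM, and of 0.215 to 0.583 in the other groups.

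**Figure D4:**
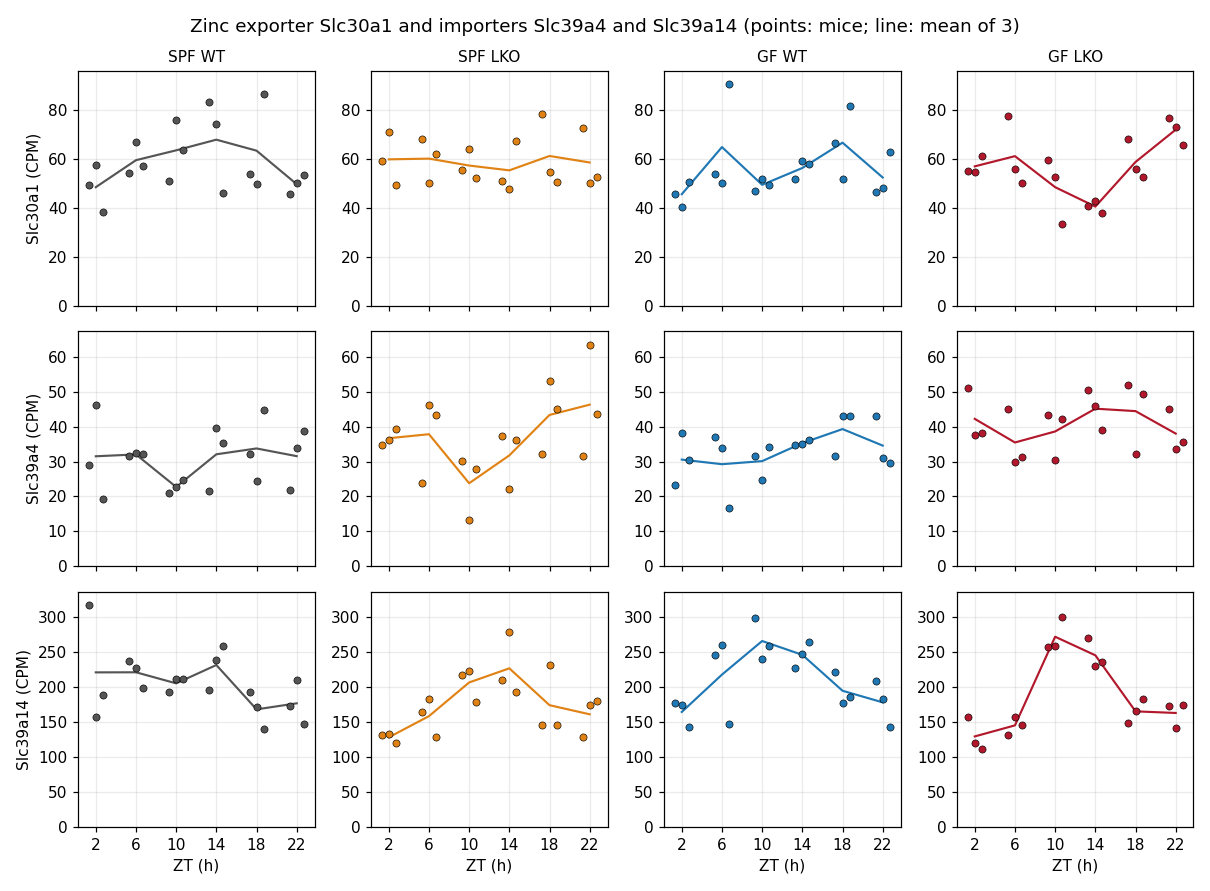
Slc30a1, Slc39a4 and Slc39a14 in CPM against ZT in hours, with 1 panel per gene and group. Each point is a mouse and lines join the means of the 3 mice. Slc39a14 rises towards ZT10 to ZT14 in SPF LKO, GF WT and GF LKO livers, while Slc30a1 values lie between 33.5 and 90.7 CPM.

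The metallothioneins also had 24 h rhythms in some groups. In GF WT livers the Mt1 mean was 135 ± 18.8 CPM at ZT10 and 19.9 ± 14.6 at ZT18 (SD, n = 3 each), with a fitted peak at ZT9.0 (adjusted p = 0.0293). In GF LKO livers it was 132 ± 26.5 CPM at ZT6, 134 ± 131 at ZT10, where 1 liver stood at 286 CPM, and 13.7 ± 4.73 at ZT18. The fitted peak there was at ZT7.1 (adjusted p = 2.60e-05, edgeR). The ZT10 and ZT18 sets did not overlap in either genotype. Mt2 passed in GF LKO livers (adjusted p = 0.00601) and had an adjusted p of 0.0622 in GF WT livers, where it passed without the doubted library of ZT6 (adjusted p = 0.00528) and with the replicate block (adjusted p = 0.0331). The Mt2 call in GF LKO livers was lost without the mice of replicate number 1 (adjusted p = 0.0525). The GF LKO call of Mt1 remained under all 9 alternatives, while that of GF WT was lost under 4 of 9, with adjusted p up to 0.213.

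In SPF LKO livers Mt1 passed (adjusted p = 0.00453), with the ZT14 mean of 59.6 ± 77.9 CPM above the ZT22 mean of 2.90 ± 0.669. It also passed without both doubted libraries of the group (adjusted p = 0.00262). In SPF WT livers it did not pass (adjusted p = 0.226, or 0.971 without ZT2 replicate 1). The rhythm of both metallothioneins differed between genotypes in SPF mice (adjusted p = 0.0172 for Mt1 and 0.0107 for Mt2) and between GF and SPF LKO mice (adjusted p = 0.0149 and 0.0221). In SPF mice the calls were lost without SPF WT ZT2 replicate 1 (adjusted p = 0.158 and 0.128) and without the doubted library of SPF LKO ZT14 (adjusted p = 0.131 and 0.288). Between LKO groups they were lost without the latter (adjusted p = 0.052 and 0.413).

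Of the members, 1 of 6 had a 24 h rhythm in SPF WT, 2 of 5 in SPF LKO, 3 of 6 in GF WT and 5 of 6 in GF LKO livers, against 15%, 21.2%, 26.7% and 35% of all genes tested. The rhythm differed between genotypes for 3 of 6 members in SPF and 1 of 6 in GF mice, against 1.02% and 5.81% of all genes. Between GF and SPF mice it differed for 2 of 6 members in LKO livers, against 4.45% of all genes, and in WT livers for 0 of 6 in edgeR, with 3 at an unadjusted p under 0.05 and 0 by limma, against 0.0355% of all genes.

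**Figure D5:**
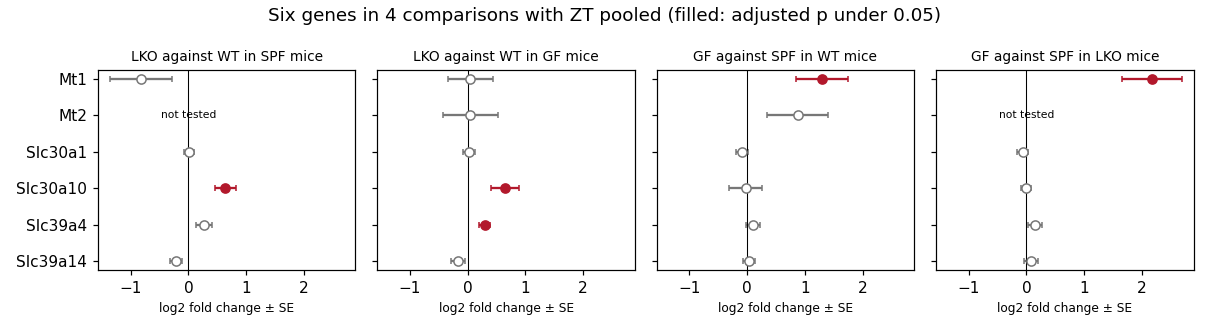
The log2 fold change with its standard error for the 6 genes in the 4 comparisons of groups with ZT pooled (n = 18 livers a group, except where a gene was not tested). Filled points have an adjusted p under 0.05. Mt1 passes in both comparisons of GF against SPF mice, Slc30a10 in both comparisons of LKO against WT mice and Slc39a4 between genotypes in GF mice.

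Other genes of zinc handling formed a list of 23, of which 16 or 17 were tested. Between genotypes 3 rose and 2 fell in LKO livers of SPF mice (median -0.02 on the log2 scale, against -0.01 over all genes), and 4 rose and 0 fell in GF mice (median 0.01, as over all genes), where 23.1% and 30.8% of all genes were called. Slc39a11, a zinc importer, was higher in LKO livers by 0.46 ± 0.07 in SPF mice (adjusted p = 1.51e-06) and by 0.50 ± 0.06 in GF mice (adjusted p = 7.65e-09). Slc39a8 (ZIP8), the importer closest to Slc39a14, was higher by 0.22 ± 0.07 (adjusted p = 0.0134) and 0.30 ± 0.08 (adjusted p = 0.00539). Slc30a4 and, in GF mice, Slc30a7 rose by 0.17 to 0.21, and in SPF mice Slc39a2 and Slc30a5 fell by 0.54 and by 0.19.

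Between microbial states the zinc list had 3 higher and 2 lower genes in GF WT livers (median -0.01, against -0.02 over all genes) and 3 higher and 1 lower in GF LKO livers (median 0.05, against -0.02), where 31.8% and 36.4% of all genes were called. Slc39a2 was lower in GF livers, by -1.04 ± 0.24 in WT (adjusted p = 0.00117) and by -0.53 ± 0.20 in LKO livers (adjusted p = 0.0391), at a median of 0.78 CPM over all libraries. Mtf1, the zinc-sensing activator of the metallothioneins, was lower in GF WT livers by -0.17 ± 0.06 (adjusted p = 0.0294), with 11.6 to 23.4 CPM over all libraries. Slc39a11, Slc39a9 and Slc30a6 were higher in GF livers of both genotypes, by 0.07 to 0.21. Mt3 reached at most 0.0548 CPM and Mt4 was at 0 in all libraries. In the difference of the genotype effect, 0 of 17 passed.

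Of 10 copper genes, all tested, 1 rose and 2 fell in LKO livers in either microbial state (medians of -0.04 in SPF and -0.10 in GF mice), where 23.1% and 30.8% of all genes were called. Ceruloplasmin, Cp, the copper-carrying ferroxidase of plasma, rose by 0.53 ± 0.07 in SPF and by 0.69 ± 0.05 in GF mice (adjusted p = 1.1e-06 and 2.24e-15), and the copper importer Slc31a1 fell by 0.20 and by 0.26. In GF against SPF livers 6 rose and 2 fell in WT (median 0.16) and 5 rose and 3 fell in LKO livers (median 0.16), against 31.8% and 36.4% of all genes called and medians of -0.02 over all genes. The copper chaperone Ccs and its client Sod1 rose in both, by 0.21 and 0.34 in WT and by 0.29 and 0.25 in LKO livers, and Cox17 fell by 0.77 and by 0.51. The biliary copper exporter Atp7b fell by 0.34 between the LKO groups.

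Of 14 glucocorticoid-responsive genes 0 passed between GF and SPF WT livers, and 4 rose and 1 fell between LKO groups. Their medians were -0.0045 and 0.27 on the log2 scale (edgeR), where 31.8% and 36.4% of all genes were called. The risers were Tsc22d3 (0.62 ± 0.15, adjusted p = 0.00174), Pck1 (0.63 ± 0.18), Tat (0.59 ± 0.18) and Cdkn1a (0.77 ± 0.28). Between genotypes 2 rose and 1 fell in SPF (median -0.24) and 3 rose and 2 fell in GF mice (median -0.10), where 23.1% and 30.8% of all genes were called. Hsd11b1, which regenerates active glucocorticoid, was lower in LKO livers, by -0.67 ± 0.10 in SPF and -0.79 ± 0.06 in GF mice. Of 16 acute-phase genes 1 rose and 3 fell in GF WT and 6 rose and 3 fell in GF LKO livers against SPF (medians -0.10 and 0.02), beside 31.8% and 36.4% of all genes called. Saa3 fell in both, by 1.4 and by 0.77. In LKO against WT livers 1 rose and 4 fell in SPF and 2 rose and 4 fell in GF mice (medians -0.31 and -0.14), beside 23.1% and 30.8% of all genes called. The interaction called 0 genes of either list in edgeR.

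The genes whose levels followed each member most closely over the 72 libraries, among 10707 others whose log2 CPM averaged 1 or more, were named by Spearman's rho. For Mt1 they were Retreg1 (0.84), Rnase4 (0.77) and Ang (0.76). For Slc30a10 they were Tubb2a (0.85), Chka (0.82) and Ppard (0.81), and for Slc39a14 Pfkfb3 (0.83), Slc35a4 (0.82) and Klf13 (0.81). For Slc30a1 they were Id2 (0.67), Mid1ip1 (0.63) and Nfe2l2 (0.59), and for Slc39a4 Ggcx (0.71), Maged1 (0.70) and Parp1 (0.70). For Mt2 they were Mt1 (0.94), Retreg1 (0.80) and Sdc4 (0.73).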

How the data were processed

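Liver RNA of 72 mice was sequenced by the authors from stranded mRNA libraries as single reads of 50 bases. Reads were aligned to mm10 with STAR 2.6.1b and counted per gene with featureCounts 2.0.0 over the exons of Ensembl release 97, as stated for the study, and the deposited values are whole read counts with no normalization. Gene symbols were matched for 55394 of 55573 identifiers. Groups followed the labels, and 0 pairs of libraries held identical counts. From the counts, edgeR 4.0.16 (R 4.3.3; TMM factors, filterByExpr, quasi-likelihood test, Benjamini-Hochberg adjustment over all genes tested, threshold 0.05) gave every adjusted p unless another tool is named. Groups were compared with ZT pooled (36 libraries), at each ZT (12 libraries, 4 group means) and for the difference of genotype effects (72 libraries). A cosine and a sine of 24 h stood in for the rhythm test of the study, which was not run here. Alternatives were DESeq2 1.42.0, limma 3.58.1 on variance-stabilized values, RLE factors, no filter, ZT as a factor, a replicate block and libraries left out. With ZT pooled, the block was each combination of ZT and replicate number, which also adjusts for ZT. At single ZT and for rhythms it was the replicate number alone. Fits without SPF WT ZT2 replicate 1 or GF LKO ZT10 replicate 2 with ZT pooled or for rhythms, those of rhythm differences without each doubted library, that of the SPF LKO rhythm without both, and those at ZT14 without both doubted libraries were chosen after seeing the data. Pooled, single-ZT, rhythm and rhythm-difference fits of SPF libraries were also run on simulated counts, with the same spread setting for every gene. The simulation did not cover the spread of Mt1 and Mt2, the fit of 4 group means at a ZT or the difference of genotype effects. It does not show how the tests perform there. The 6 genes are named throughout, up to 6 passing genes per list and comparison by adjusted p, and the 3 genes of most like pattern; the members and the lists were chosen with earlier results of these data known. The study states that mice were moved to individual housing before stool was collected and, later, tissue was taken. Nothing states whether mice of a group had shared a cage before that, or a litter, so p-values measure the spread between these samples.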

Additional observations from a re-analysis of the deposited data

Results flagged for a closer look

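The 6 results below are listed here because a test of the difference between groups passed, each an adjusted p of the 24 h rhythm in edgeR. Between genotypes in SPF mice they were 0.0172 for Mt1, 0.0107 for Mt2 and 0.0222 for Slc30a10, and in GF mice 1.27e-08 for Slc30a10. Between GF and SPF mice in LKO livers they were 0.0149 for Mt1 and 0.0221 for Mt2. The Slc30a10 difference in GF mice remained under all 10 alternatives. Both Mt1 and Mt2 differences were lost without the SPF LKO ZT14 library whose Npas2 went against its label. Sets of 3 mice and groups of 18 were not searched for outlying samples.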

How the results depend on the processing

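The number of the 6 genes that passed is given first. With ZT pooled, LKO against WT in SPF mice gave 1, and 2 without all doubted libraries. In GF mice it gave 2, and 1 with no filter on low counts. Slc39a14 passed there as well with the replicate block (adjusted p = 0.0354, edgeR) and with ZT as a factor (adjusted p = 0.0201, edgeR). GF against SPF gave 1 in WT, and 2 with the replicate block, and 1 in LKO mice, and 2 with no filter. Leaving out 1 replicate number or library gave 0 to 3, 0 to 2, 0 to 2 and 1 to 2 in the same order. Of 36 tests at single ZT, the counts between genotypes were 5 in SPF (15 with no filter, 2 with only the 6 libraries compared, 2 to 6 with 1 library left out) and 3 in GF mice (8, 5, and 2 to 4). Between microbial states they were 2 in WT (4 with DESeq2, 10 with no filter, 4 with ZT14 without both doubted libraries, 1 to 4 with 1 left out) and 5 in LKO mice (9, 10, and 3 to 7). Rhythm counts were 1 in SPF WT (3 with no filter, 1 to 2 left out), 2 in SPF LKO (1 with ZT as a factor, 4 with no filter, 1 to 3), 3 in GF WT (1 with ZT as a factor, 2 to 5) and 5 in GF LKO livers (3 to 5). Rhythm differences between genotypes were 3 in SPF (1 with limma, 1 without all doubted libraries, 0 to 3 left out) and 1 in GF mice (2 without all doubted libraries, 1 to 2), and between microbial states 0 in WT (1 with no filter) and 2 in LKO mice (1 with limma, 0 without all doubted libraries, 0 to 2). With no filter the genes tested include many at 0 counts. The cause of the other changes was not tested.

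Signs turned only in log2 differences that did not pass with the settings given first. Of these, Mt1 between genotypes in SPF mice and Slc39a4 between LKO groups passed under at least 1 alternative. Their lowest adjusted p was 0.00154 and 0.0409 (edgeR). Between genotypes in SPF mice, leaving out 1 replicate number or library gave -2.10 to 0.50 for Mt1 and -0.0921 to 0.0840 for Slc30a1, which was -0.0279 without all doubted libraries. In GF mice the same gave -0.37 to 0.41 for Mt1, -0.79 to 0.60 for Mt2 and -0.13 to 0.22 for Slc30a1. With ZT as a factor Mt1 was -0.12 and Mt2 -0.13 there. Between WT groups the range was -0.22 to 0.0296 for Slc30a1, -0.0894 to 0.12 for Slc30a10 (0.0138 with no filter) and -0.00618 to 0.18 for Slc39a4, and between LKO groups -0.0536 to 0.0369 for Slc30a10 (0.0025 with DESeq2), -0.0745 to 0.29 for Slc39a4 and -0.00957 to 0.23 for Slc39a14. The genotype effect in GF minus SPF mice ranged from -0.0898 to 1.89 for Mt1, -0.13 to 0.19 for Slc30a1 (-0.0036 with no filter), -0.17 to 0.11 for Slc30a10 (0.0014 with DESeq2, 0.0020 with RLE factors, 0.0647 with ZT as a factor), -0.0925 to 0.13 for Slc39a4 (-0.0758 without all doubted libraries) and -0.0876 to 0.19 for Slc39a14.

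The replicate numbers do not pair the samples: deviations of same-numbered samples correlated between -0.379 and 0.476 (median -0.0219, 20 of 72 pairs over 0.1). With the replicate block, here of ZT and replicate number together, Mt1 and Mt2 between genotypes in GF mice were -0.0865 and -0.26. Slc30a10 was 0.0160 between LKO groups and 0.0594 for the genotype effect in GF minus SPF mice. Mt2 passed between WT groups (1.43, adjusted p = 0.0179, edgeR), and Slc39a14 between genotypes in GF mice (-0.20, adjusted p = 0.0354, edgeR). Depth limits Mt2, whose counts per library ran from 0 to 197.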
